A study of Macaca mulatta with 449 samples.

Results

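The cerebellar vermis (CBV) was compared with the cerebellar cortex (CBC) in 8 rhesus macaques (Macaca mulatta). The comparison took 16 of the 408 bulk RNA samples of a map of 51 brain sub-regions, with 1 CBV and 1 CBC sample from each animal, and the samples were taken by their sub-region label. The animals are numbered as in the labels. Animals 2 and 3 were males of 10 years, animals 6 and 11 were females of 10 and 9.8 years, animals 7 and 8 were males of 4 and 3.8 years, and animals 4 and 10 were females of 3.2 and 5 years, so that 4 animals were mid-aged and 4 young. None carried a transgene or received a treatment by the labels, and both sub-regions of an animal were dissected from the same brain by one anatomist as a small piece of tissue. RNA was sequenced after removal of ribosomal RNA. The label of CBC does not say which folia or which side were taken, so CBC is used here as the name of that sample and not as the hemisphere.

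The vermis is the midline strip of the cerebellum. It receives much spinal and vestibular input, its Purkinje cells project largely to the fastigial and vestibular nuclei, and it serves posture, gait and eye movement, whereas more lateral cortex serves limb movement and planning. All folia share one circuit of granule cells, Purkinje cells, inhibitory interneurons and Bergmann glia, but Purkinje cells fall into parasagittal stripes marked by zebrin (ALDOC), and unipolar brush cells, an excitatory interneuron, are most dense in vestibular folia. OTX2 is a homeodomain transcription factor that sets the forebrain and midbrain apart from the hindbrain in the embryo and acts in granule cell precursors of the developing cerebellum. CDH8 is a type II cadherin, one of the adhesion molecules that mark connected groups of neurons.

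Between 10194866 and 15755102 reads were counted on genes in CBC samples (median 11951307) and between 9341544 and 11943509 in CBV samples (median 10697112.5), and the CBC library was the deeper one in 7 of 8 animals. The unit of a level is CPM (counts over the TMM-adjusted library size), and a difference is the log2 fold change (log2FC) of CBV over CBC from a fit with the animal as a block, with its SE and a Benjamini-Hochberg adjusted p (FDR) over all 14250 genes tested. The CBC library of animal 4 stood apart. Its median Pearson correlation with the other CBC libraries was 0.889 across genes, against 0.972 to 0.980 for the other 15 libraries within their own sub-region, and among the 16 samples it has the lowest transcript integrity score in the authors' quality table. Results are therefore also given without animal 4. Both tissues carried the granule cell markers of cerebellum: GABRA6, a GABA-A receptor subunit that granule cells express, was at 1002 ± 184 CPM in CBC and 1069 ± 149.8 CPM in CBV (SD, n = 8), and its highest mean in any of the other 49 sub-regions was 1.65 CPM.

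Across the transcriptome, 48 genes were higher in CBV (0.337% of the genes tested) and 72 were higher in CBC (0.505%) at FDR < 0.05. With a fold above 2 as well, 15 genes were higher in CBV (0.105%) and 17 in CBC (0.119%). Only 3 genes passed a fold of 4, and the median log2FC was 0.74 among the genes higher in CBV and -0.69 among those higher in CBC, beside -0.0035 over all genes tested. The direction was the same in all 8 animals for 42 of the 48 genes and for 67 of the 72, and in 7 of 8 animals for the others. The values of the 2 sub-regions did not overlap for 6 genes with CBV higher (0.0421%) and 8 with CBC higher (0.0561%), of which 4 and 7 were called. Without animal 4, 271 genes (1.9% of 14277 tested) were higher in CBV and 343 (2.4%) higher in CBC, and all 120 genes called with every animal were among them. Fewer genes were called without any one of the others: 49 without animal 2, 46 without animal 3, 63 without animal 6, 42 without animal 7, 39 without animal 8, 52 without animal 10 and 86 without animal 11. OTX2, CDH8 and SPON1 were among the genes called in each of these 8 fits. Counts of called list members below are to be read beside the shares of all genes given here.

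**Figure D1:**
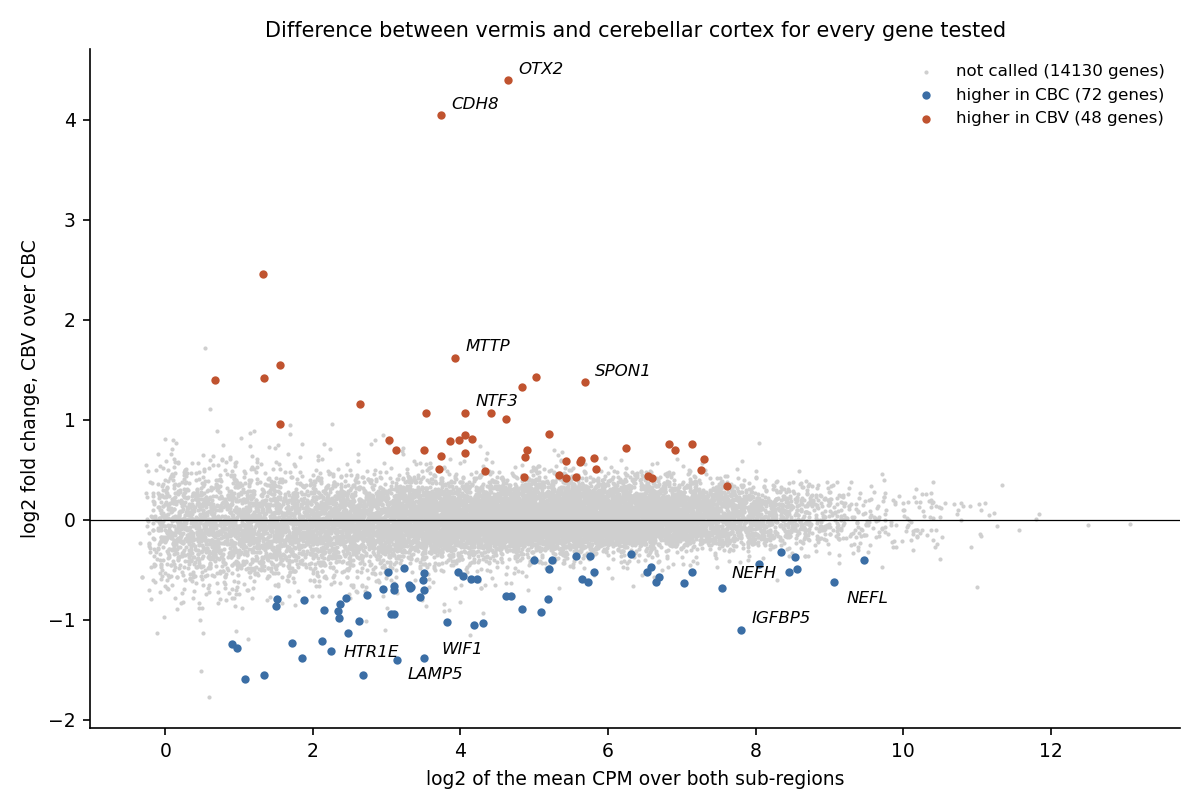
Each point is one of the 14250 genes tested, at the log2 of its mean CPM over both sub-regions (horizontal) and its log2 fold change of CBV over CBC (vertical). The 48 genes higher in CBV are orange, the 72 higher in CBC are blue and the others grey, and OTX2 and CDH8 lie far above all other genes at log2FC 4.40 and 4.05.

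OTX2 had the largest difference of all genes tested. In CBC it ran from 1.08 to 6.12 CPM with a median of 1.70, from 14 to 63 reads a library, and in CBV from 26.7 to 63.0 CPM with a median of 49.9, from 262 to 688 reads. The groups did not overlap, since the lowest CBV library (animal 6) was still above the highest CBC library (animal 2). The fold was 21.1 (log2FC 4.40, SE 0.27, FDR 3.19e-05) and the log2FC was 4.51 without animal 4. Within animals, the difference in log2(CPM + 1) ran from 3.04 in animal 4 to 4.89 in animal 3.

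CDH8 rose almost as much. It ran from 0.449 to 2.78 CPM in CBC (median 1.58) and from 9.29 to 38.99 CPM in CBV (median 27.3), again without overlap, and the fold was 16.5 (log2FC 4.05, SE 0.27, FDR 4.59e-05). The lowest CBV value was in animal 6, the animal that also had the lowest OTX2 in CBV, and it gave the smallest within-animal difference of CDH8 at 1.84. LAMP5, a lysosome-associated membrane protein that marks a class of inhibitory neurons in the neocortex, went the other way. It ran from 8.88 to 24.4 CPM in CBC (median 10.1) and from 2.45 to 10.3 CPM in CBV (median 4.73). The groups overlapped through animal 6, which was highest in both, but each of the 8 animals had less LAMP5 in its vermis (log2FC -1.41, SE 0.14, FDR 0.00139).

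**Figure D2:**
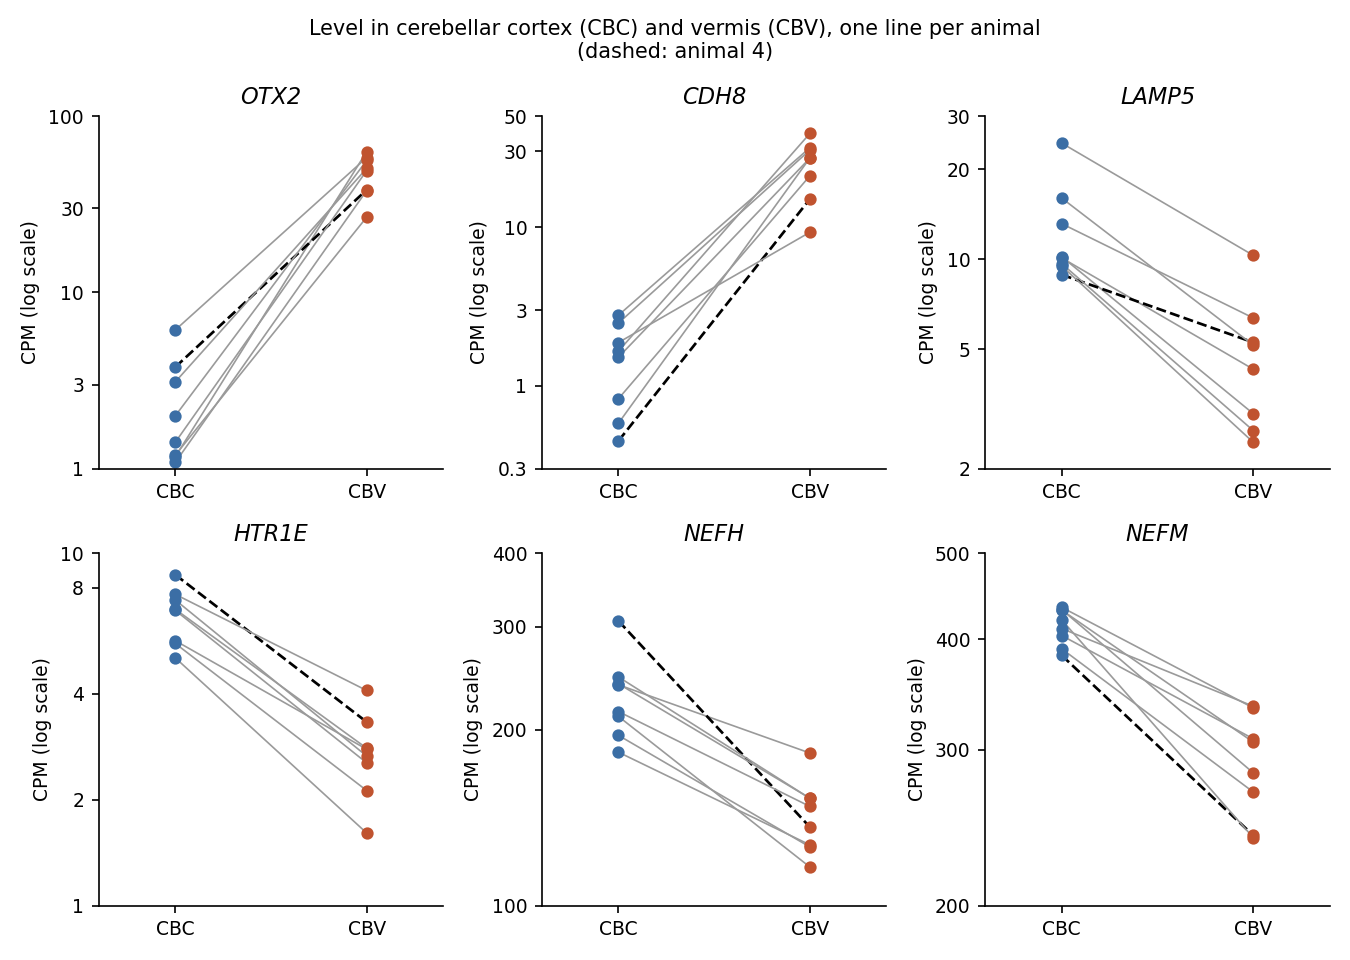
Level in CPM on log axes, scaled per gene, of 6 genes in CBC (blue) and CBV (orange), with a line joining the samples of one animal and animal 4 dashed. OTX2 and CDH8 were higher in CBV and LAMP5, HTR1E, NEFH and NEFM lower in CBV in all 8 animals, and of these 6 genes the groups overlap for LAMP5 alone.

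Other genes higher in CBV lay well below OTX2 and CDH8 in fold. The next called gene was ENSMMUG00000038637, which has no symbol, at 0.831 ± 0.842 CPM in CBC and 4.16 ± 2.43 CPM in CBV. It rose in 7 of 8 animals (log2FC 2.45, SE 0.40, FDR 0.0230). MTTP, the lipid transfer protein that loads lipoproteins, ran from 3.14 to 17.6 CPM in CBC (median 6.37) and from 15.0 to 37.3 CPM in CBV (median 21.7), with a log2FC of 1.62 (SE 0.20, FDR 0.00299). Animal 10 was the highest of both groups. SPON1, the matrix protein F-spondin, ran from 8.34 to 40.5 CPM in CBC (median 29.8) and from 39.8 to 109 CPM in CBV (median 75.0), with a log2FC of 1.38 (SE 0.13, FDR 0.00116). Animal 4 had the lowest level of SPON1 on both sides and the widest difference, and its log2FC was 1.27 without that animal. ZNF804B, a zinc finger protein, had a log2FC of 1.01 (FDR 0.00512), and ARHGAP6, a GTPase-activating protein, one of 0.86 (FDR 0.00517).

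TAC1, the precursor of substance P, was low on both sides. It ran from 0.510 to 3.46 CPM in CBC (median 1.36) and from 2.10 to 5.90 CPM in CBV (median 4.75), and rose in CBV in all 8 animals (log2FC 1.55, SE 0.19, FDR 0.00299). Of the 7 neuropeptide genes tested it was the only one called with every animal, and PENK, the enkephalin precursor, rose as well without animal 4 (log2FC 0.58, FDR 0.00501). NTF3, the ligand neurotrophin-3, and NTRK3, its receptor TrkC, both rose in CBV. NTF3 ran from 5.72 to 21.9 CPM in CBC (median 10.5) and from 16.4 to 31.6 CPM in CBV (median 21.7), with a log2FC of 1.07 (SE 0.13, FDR 0.00299). NTRK3 was at 34.6 ± 9.10 CPM in CBC and 46.5 ± 8.33 CPM in CBV (log2FC 0.45, SE 0.09, FDR 0.0354), and was called in 2 of the 8 fits that left out an animal. BDNF, NTRK2 and NGFR, the other members of the neurotrophin list that were tested, were not called with every animal, and BDNF fell without animal 4 (log2FC -0.31, FDR 0.0213). SLC6A7, a proline transporter of glutamatergic terminals, rose from 13.7 ± 5.95 to 28.9 ± 11.97 CPM (log2FC 1.07, FDR 0.0034).

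Some calls sat on genes whose reads may be shared. How the counting treated strand and overlaps is not given, although the library kit keeps the strand. SEPTIN10, a cytoskeletal septin (log2FC 1.07, FDR 0.0457), and SOWAHC, an ankyrin repeat protein (log2FC 1.39, FDR 0.0488), are neighbours in the gene order of the RefSeq T2T-MMU8v2.0 assembly, and they were called in 2 and 1 of the 8 fits that left out an animal. PARPBP, a partner of the DNA repair enzyme PARP1, had a log2FC of 0.96 (FDR 0.0119), and its span overlaps that of PMCH, the gene of a hypothalamic hormone, in that assembly. PMCH itself was at 0.443 CPM in CBC and 1.17 CPM in CBV, too low for the test. Reads of the 2 genes cannot be told apart here. The spans of NTF3, NTRK3 and ARHGAP6 overlap those of LOC144332737, LOC100425937 and AMELX in the same assembly. AMELX was at 0.128 CPM in CBC and 0.153 CPM in CBV, and no level was available for the other overlapping genes. HPCA, the calcium sensor hippocalcin, and TMEM54 are also neighbours. Both rose in 7 of 8 animals, with log2FC 1.43 and 1.33 (FDR 0.0241 and 0.0245), and their log2 CPM correlated at 0.990 over the 16 samples.

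The patterns most like that of OTX2, by the Pearson correlation of log2(CPM + 1) over the 16 samples after each animal's mean was taken off, included those of ANKRD6 (0.983), ENSMMUG00000019425 (0.983), CDH8 (0.970) and PKIB (0.968). The 16 points share 8 animals and the contrast itself, and the correlation is a description. ANKRD6, also known as diversin and active in Wnt signalling, was at 56.8 ± 12.97 CPM in CBC and 95.02 ± 26.2 CPM in CBV (log2FC 0.72, SE 0.08, FDR 0.00299). PKIB, an inhibitor of protein kinase A, was at 125 ± 29.6 and 190.4 ± 42.3 CPM (log2FC 0.60, SE 0.07, FDR 0.00299). These genes were higher in CBV in all 8 animals.

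Among the genes higher in CBC, HTR1E, a serotonin receptor that inhibits adenylyl cyclase, had the lowest FDR. It ran from 5.05 to 8.70 CPM in CBC (median 6.92) and from 1.61 to 4.08 CPM in CBV (median 2.72), with no overlap between the groups (log2FC -1.31, SE 0.12, FDR 0.000992). IGFBP5, a secreted binding protein of insulin-like growth factors, ran from 207 to 416 CPM in CBC (median 277) and from 81.5 to 333 CPM in CBV (median 127), and fell in all 8 animals (log2FC -1.10, SE 0.14, FDR 0.00404). The vermis of animal 6 was far above the other CBV samples, of which the highest was at 164 CPM. WIF1, a secreted inhibitor of Wnt ligands, was at 16.5 ± 8.66 CPM in CBC and 6.31 ± 3.00 CPM in CBV (log2FC -1.38, SE 0.19, FDR 0.00637).

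The other genes of largest fold on that side were low to moderate in level, among those with a symbol and the same direction in all 8 animals. Outside that choice, PWWP3B (log2FC -1.55), PI16 (-1.55) and HGF (-1.28) had larger drops, each with 1 animal higher in CBV. So did ENSMMUG00000014725 (-1.59) and ENSMMUG00000006910 (-1.38), which have no symbol. TAFA2, a chemokine-like secreted protein, fell from 24.5 ± 5.31 CPM in CBC to 11.98 ± 3.86 CPM in CBV (log2FC -1.05, FDR 0.00637). DYSF, the membrane repair protein dysferlin, fell from 8.30 ± 2.77 to 4.09 ± 1.36 CPM (log2FC -1.02, FDR 0.00299), and MYBPC3, a myosin-binding protein, from 6.04 ± 1.67 to 2.71 ± 1.33 CPM (log2FC -1.21, FDR 0.0114). MYOC, the secreted protein myocilin, had a spread between animals larger than its mean difference, at 17.6 ± 14.5 and 10.7 ± 13.96 CPM, but fell within all 8 animals (log2FC -1.02, FDR 0.0106). PRSS56, a serine protease (log2FC -1.24, FDR 0.0354), GSG1L, an auxiliary subunit of AMPA receptors (log2FC -1.23, FDR 0.0398), EPN3, an endocytic adaptor (log2FC -1.13, FDR 0.0289), and SERPINA1, alpha-1 antitrypsin (log2FC -1.03, FDR 0.0241), were called in 1, 2, 2 and 3 of the 8 fits that left out an animal.

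**Figure D3:**
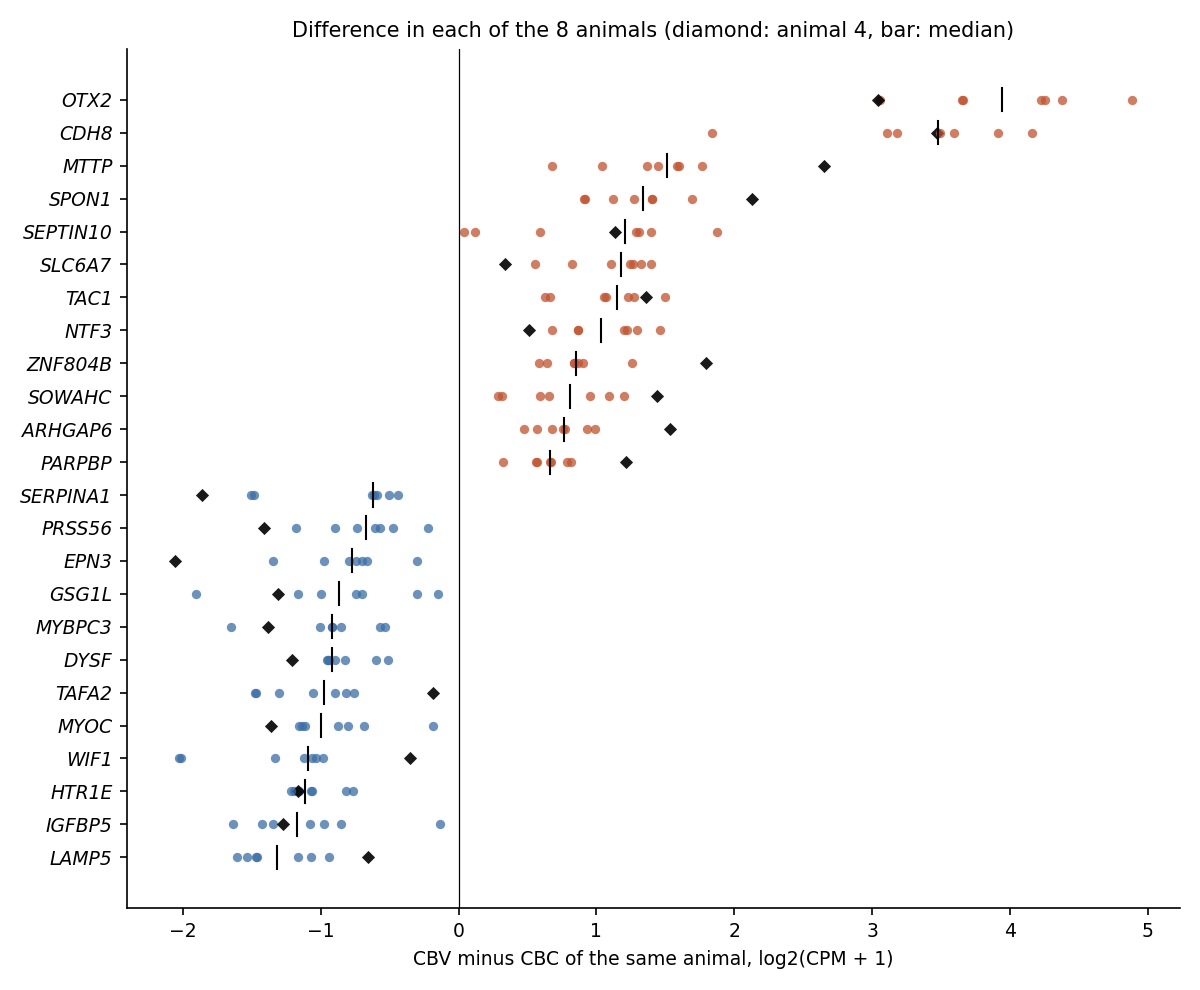
Difference in log2(CPM + 1) between the vermis and the cerebellar cortex of each animal (horizontal). A bar marks the median and a diamond animal 4. Drawn are the 12 genes higher in CBV (orange) and the 12 higher in CBC (blue) of largest fold within a choice. It took called genes with a symbol, at least 1 CPM in the higher sub-region and the same direction in every animal. Called genes of larger fold outside this choice are not drawn. By this choice of genes, all points of a gene lie on one side of 0. Those of OTX2 (3.04 to 4.89) lie beyond those of all others shown but CDH8 (1.84 to 4.16).

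The general marker lists of granule cells, Purkinje cells, inhibitory interneurons and Bergmann glia held no called gene with every animal in the fit. Over all genes tested, 0.337% were higher in CBV and 0.505% higher in CBC, and 1.9% and 2.4% without animal 4. The 0 calls in lists this short are near the shares of the full fit and are no particular result about these cell types. Of 14 granule cell markers, 0 were called in either direction, and their median log2FC was 0.10, with 11 of the 14 positive. Their summed CPM ran from 8619 to 11091 CPM in CBC and from 9561 to 11409 CPM in CBV and was higher in the vermis of 8 of 8 animals, and the mean of their log2(CPM + 1) in 7 of 8. Of 14 Purkinje cell markers, 0 were called (median log2FC 0.01). Examples are CALB1, the calcium buffer calbindin, at 1055 ± 182 CPM in CBC and 1073 ± 198 CPM in CBV (log2FC 0.02, FDR 0.909), and ITPR1, the calcium release channel, with log2FC 0.17 (FDR 0.728). ITPR1 was at 289 CPM in the CBC library of animal 4, where the next lowest CBC library had 1565 CPM. Without animal 4, PAX6 and RELN rose among the granule cell markers (log2FC 0.20 and 0.19, FDR 0.0126 and 0.0406), and CA8, PPP1R17 and ITPKA fell among the Purkinje cell markers (log2FC -0.30, -0.26 and -0.50, FDR 0.00204, 0.0165 and 0.00449). Of 12 inhibitory interneuron markers and 9 markers of Bergmann glia and astrocytes, 0 were called, and GFAP fell when animal 4 was left out (log2FC -0.28, FDR 0.00699).

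Of the zebrin stripe markers, EBF2 alone was called. ALDOC, zebrin itself, was at 2536 ± 395 CPM in CBC and 2411 ± 247 CPM in CBV (log2FC -0.06, FDR 0.639), and 0 of the 6 zebrin-positive markers were called with every animal. Without animal 4, PLCB3 of that list rose (log2FC 0.36, FDR 0.0401). Of the 4 zebrin-negative markers, EBF2, a transcription factor of the zebrin-negative Purkinje cells, fell in CBV in 7 of 8 animals (log2FC -0.78, SE 0.16, FDR 0.0485). The list's median log2FC was 0.04. Its summed CPM was higher in CBV in 6 of 8 animals, but the mean of its members' log2(CPM + 1), which weighs them alike, in 1 of 8. EBF2 ran from 3.77 to 9.66 CPM in CBC (median 6.65) and from 2.76 to 5.57 CPM in CBV (median 4.00). The CBC library of animal 4 held the lowest value of its group, and EBF2 was called in 1 of the 8 fits that left out an animal, the one without animal 4. Among 5 unipolar brush cell markers tested, CALB2, the calcium-binding protein calretinin, rose in 7 of 8 animals, from 11.96 ± 3.62 CPM in CBC to 21.6 ± 6.25 CPM in CBV (log2FC 0.85, SE 0.16, FDR 0.0378), and was called in 2 of the 8 fits. Granule cells of some species and other neurons also carry calretinin. LMX1A and GRP of the same list were too low for the test, with at most 17 reads in any of the 16 libraries, and EOMES, a defining marker of these cells, and SLN were not matched by symbol. Over the 7 found, the sum was higher in the vermis of 8 of 8 animals and the mean of log2(CPM + 1) in 6 of 8.

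The neurofilament genes, part of the cerebellar nuclei list, were lower in CBV. Of the 7 genes of that list tested, NEFH, NEFM and NEFL fell and none rose, with a median log2FC of -0.41. They encode the heavy, medium and light neurofilament proteins, which are abundant in large projection neurons and their myelinated axons wherever these lie, so that they do not mark the nuclei alone. NEFH ran from 183 to 307 CPM in CBC (median 227) and from 116 to 182 CPM in CBV (median 142). NEFM ran from 383 to 435 CPM in CBC (median 416) and from 239 to 336 CPM in CBV (median 294). The groups of these 2 genes did not overlap, and the log2FC was -0.68 (SE 0.09, FDR 0.00378) for NEFH and -0.52 (SE 0.07, FDR 0.00637) for NEFM. NEFL ran from 490 to 759 CPM in CBC (median 668) and from 335 to 549 CPM in CBV (median 430), with a log2FC of -0.62 (SE 0.08, FDR 0.00299). SNCG, also of the cerebellar nuclei list, was not called with every animal (log2FC -0.41, FDR 0.225) but fell without animal 4 (log2FC -0.31, FDR 0.0416). SLC17A6, the vesicular glutamate transporter of nuclear neurons, was not called (37.2 ± 13.2 and 45.3 ± 15.4 CPM, FDR 0.366), and TBR1, LHX9 and LHX2, transcription factors of these neurons, had at most 3 reads in any library. NEFM and NEFL are neighbours in the RefSeq gene order, and so are NEFH and RFPL1, which was also lower in CBV (log2FC -0.65, FDR 0.0148).

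Oligodendrocyte markers were lower in CBV in most animals, beside the neurofilament genes. All 7 tested had a negative log2FC, with a median of -0.41, and 0 were called with or without animal 4. MBP, a myelin protein, was at 2555 ± 955 CPM in CBC and 1553 ± 405 CPM in CBV (log2FC -0.67, SE 0.20, FDR 0.22), and was called when the integrity score was a covariate (log2FC -0.62, FDR 0.0159). Summed over the list, they ran from 2983 to 6866 CPM in CBC and from 2267 to 4952 CPM in CBV, and were lower in the vermis of 7 of 8 animals. In animal 11 the sum was higher in CBV (4952 CPM against 2983 CPM), and there the within-animal difference in log2(CPM + 1) was -0.65 for NEFH, -0.39 for NEFM and -0.37 for NEFL, the last being the smallest drop of NEFL in the 8 animals. The part of white matter content in the genes higher in CBC was not tested. In bulk tissue, fewer cells of a type and less RNA of a gene per cell cannot be told apart.

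**Figure D4:**
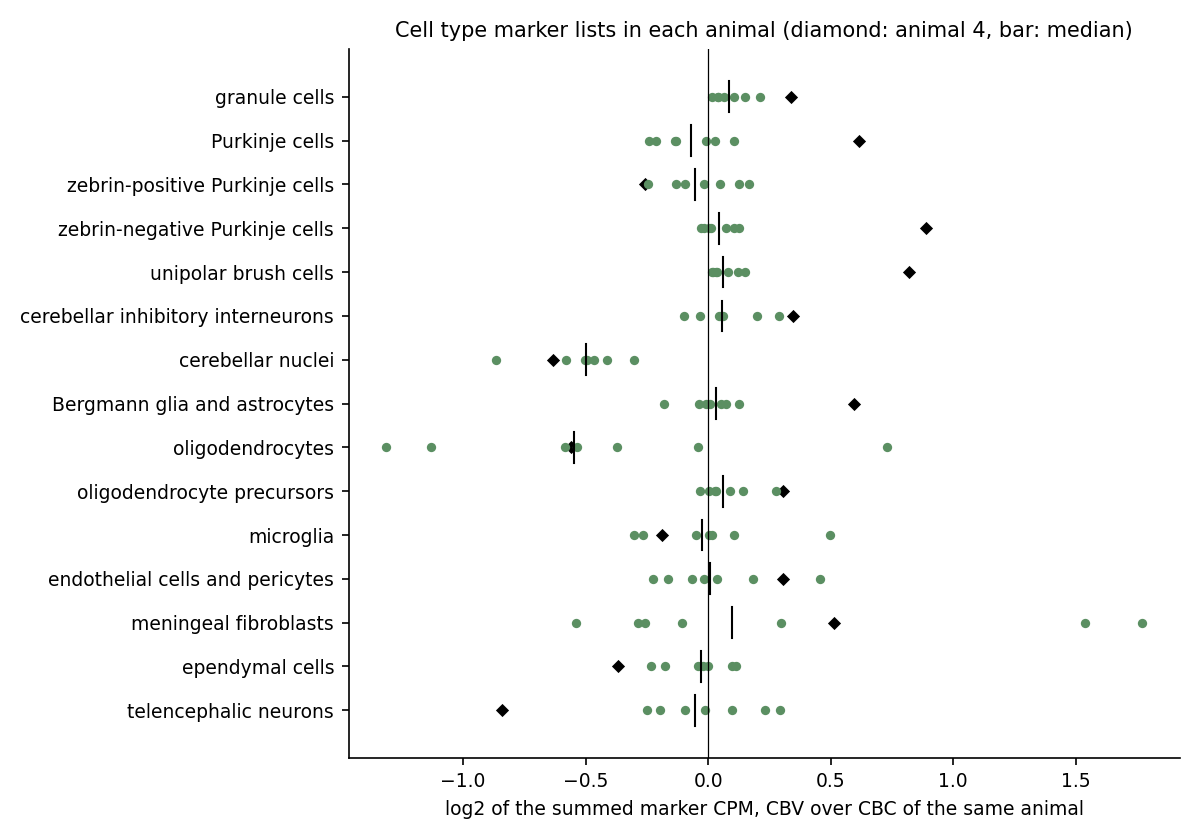
Log2 ratio of the summed CPM of 15 cell type marker lists (that of the choroid plexus, which holds OTX2, is not drawn), CBV over CBC of the same animal (horizontal), with a bar at the median over 8 animals and a diamond for animal 4. The neurofilament-containing list of the cerebellar nuclei lay below 0 in 8 of 8 animals and that of oligodendrocytes in 7 of 8, whereas those of granule cells and unipolar brush cells lay above 0 in 8 of 8. By the mean of log2(CPM + 1), granule cell markers were higher in CBV in 7 of 8 animals and unipolar brush cell markers in 6 of 8. The list of telencephalic neurons is made up mostly of SLC17A7, which is also in the granule cell list.

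Tissue next to the folia could add RNA to a sample. OTX2 is itself a marker of the choroid plexus, which lies in the fourth ventricle beneath the vermis. Of the other choroid plexus markers, FOLR1, CLIC6, KL, PRLR and LMX1A had at most 16 reads in any library and means of at most 0.563 CPM on either side. TTR, the most abundant transcript of this tissue, KCNJ13 and AQP1 were not matched by symbol and could not be checked. SLC4A5 was level, at 20.6 ± 7.53 CPM in CBC and 21.03 ± 5.57 CPM in CBV (log2FC 0.08, FDR 0.735). Of 7 meningeal fibroblast markers 0 were called. Summed over the 9 measured, they ran from 24.9 to 114 CPM in CBC and from 30.7 to 210 CPM in CBV and were higher in the vermis of 4 of 8 animals. None of the markers of oligodendrocyte precursors (5 tested), microglia (5), endothelial cells and pericytes (8), ependymal cells (4) and telencephalic neurons (4) were called, and of the 7 blood and 12 hindbrain HOX genes listed, 3 and 2 were found by symbol and did not reach the test. At the shares over all genes (0.337% higher in CBV and 0.505% higher in CBC), lists this short would mostly hold 0 calls. SLC17A7 was in the lists of both telencephalic neurons and granule cells. Its median was 462 CPM in CBC and 459 CPM in CBV, beside 467 CPM on either side for the summed telencephalic list. That sum therefore does not mark telencephalic neurons here.

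Among the 11 patterning genes of the midbrain and hindbrain that were tested, OTX2 rose and MEIS2 fell. MEIS2, a TALE homeodomain protein, ran from 26.6 to 45.9 CPM in CBC (median 35.9) and from 11.7 to 30.3 CPM in CBV (median 21.1) and was lower in all 8 animals (log2FC -0.89, SE 0.12, FDR 0.00637). Its relative MEIS1 was level (82.9 ± 15.8 and 85.1 ± 15.8 CPM, log2FC 0.04, FDR 0.786). GBX2, which opposes OTX2 at the midbrain-hindbrain boundary of the embryo, had a mean of 0.687 CPM in CBC and 0.565 CPM in CBV and was not tested. LHX1, PAX2, IRX1, IRX2, IRX3, IRX5 and PBX3 were not called.

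Of 16 classical and type II cadherins, CDH8 was the only one called, and the list's median log2FC was 0.18. Beside the counts of this paragraph, 0.337% of all genes tested were higher in CBV and 0.505% higher in CBC. Without animal 4 these shares were 1.9% and 2.4%. CDH7 was at 33.3 ± 11.3 and 43.7 ± 4.8 CPM (log2FC 0.48, FDR 0.325) and CDH18 at 95.5 ± 24.96 and 128 ± 13.7 CPM (log2FC 0.47, FDR 0.199). Without animal 4, CDH7, CDH13, CDH18 and CDH22 rose as well, with log2FC from 0.27 to 0.61, all far below that of CDH8 (3.96). Of 8 delta protocadherins 0 were called. EPHA8, an Eph receptor, was the only one of 19 ephrins and Eph receptors called with every animal. It ran from 11.4 to 40.2 CPM in CBC (median 20.2) and from 23.96 to 52.8 CPM in CBV (median 36.3) and rose in 8 of 8 animals (log2FC 0.70, SE 0.13, FDR 0.0323), although in 2 of the 8 fits that left out an animal alone. Of 21 secreted guidance and matrix cues SPON1 rose, and NTNG2, a netrin-G that binds synaptic adhesion proteins (log2FC -0.98, FDR 0.0333), and SEMA3F, a repellent semaphorin (log2FC -0.76, FDR 0.0339), fell, each in 2 of the 8 fits that left out an animal. Without animal 4, EPHA7 rose (log2FC 0.39, FDR 0.0106), and EPHB3 and SEMA3E fell (log2FC -0.27 and -0.78, FDR 0.0423 and 0.00162).

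Receptors and channels were also counted by family. With every animal in the fit, 0 of 24 glutamate receptor genes, 0 of 15 GABA-A and glycine receptor genes, 0 of 20 potassium channel genes and 0 of 13 sodium and calcium channel genes were called, with median log2FC 0.01, 0.15, -0.14 and 0.05. Over all genes tested, 0.337% were higher in CBV and 0.505% higher in CBC, and 1.9% and 2.4% without animal 4. The 0 calls are near the shares of the full fit and say nothing particular about these families. GRM4, a metabotropic glutamate receptor of granule cell terminals, was at 723 ± 288 CPM in CBC and 630 ± 108 CPM in CBV, and CACNA1A, the P/Q-type calcium channel of Purkinje cells, at 791 ± 136 and 788 ± 136 CPM. Without animal 4, GRIK2 and KCNA3 rose (log2FC 0.28 and 0.47, FDR 0.0041 and 0.00192), as did KCNC4 (log2FC 0.23, FDR 0.0379). In the same fit GRIA4, GRIN3A, KCNG4 and SCN1A fell, of which SCN1A, a sodium channel of inhibitory and other fast-firing neurons, had log2FC -0.58 (FDR 1.1e-05). SCN1A had log2FC -0.42 (FDR 0.285) with every animal in the fit and was lower in 7 of 8 animals. Of 7 immediate early genes 0 were called, although all 7 had a positive log2FC (median 0.32), and of 7 heat shock genes 0 were called (median log2FC 0.02).

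The cerebellar levels were set beside those of the other 49 sub-regions, on CPM scaled over all 408 samples. OTX2 in CBV ranked 2 of 51 with a mean of 44.5 ± 11.5 CPM, below the thalamus (68.4 ± 23.9 CPM) and above the ventral tegmental area (32.9 ± 17.1 CPM), and these 3 overlapped in range. The substantia nigra followed at 10.9 ± 1.83 CPM, with its highest sample (13.5 CPM) under the lowest of CBV (24.8 CPM). CBC ranked 12 of 51 (2.34 ± 1.67 CPM), and the median of the other sub-regions was 0.03 CPM. CDH8 gave another order. CBC was the lowest of all 51 sub-regions (1.42 ± 0.80 CPM) and CBV ranked 48 (23.6 ± 8.97 CPM), far below the dentate gyrus (277 ± 62.6 CPM) and the median of the other sub-regions (112 CPM). LAMP5 was also low, with CBC at rank 45 and CBV at rank 50, against 337 ± 84.2 CPM in the caudate nucleus.

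**Figure D5:**
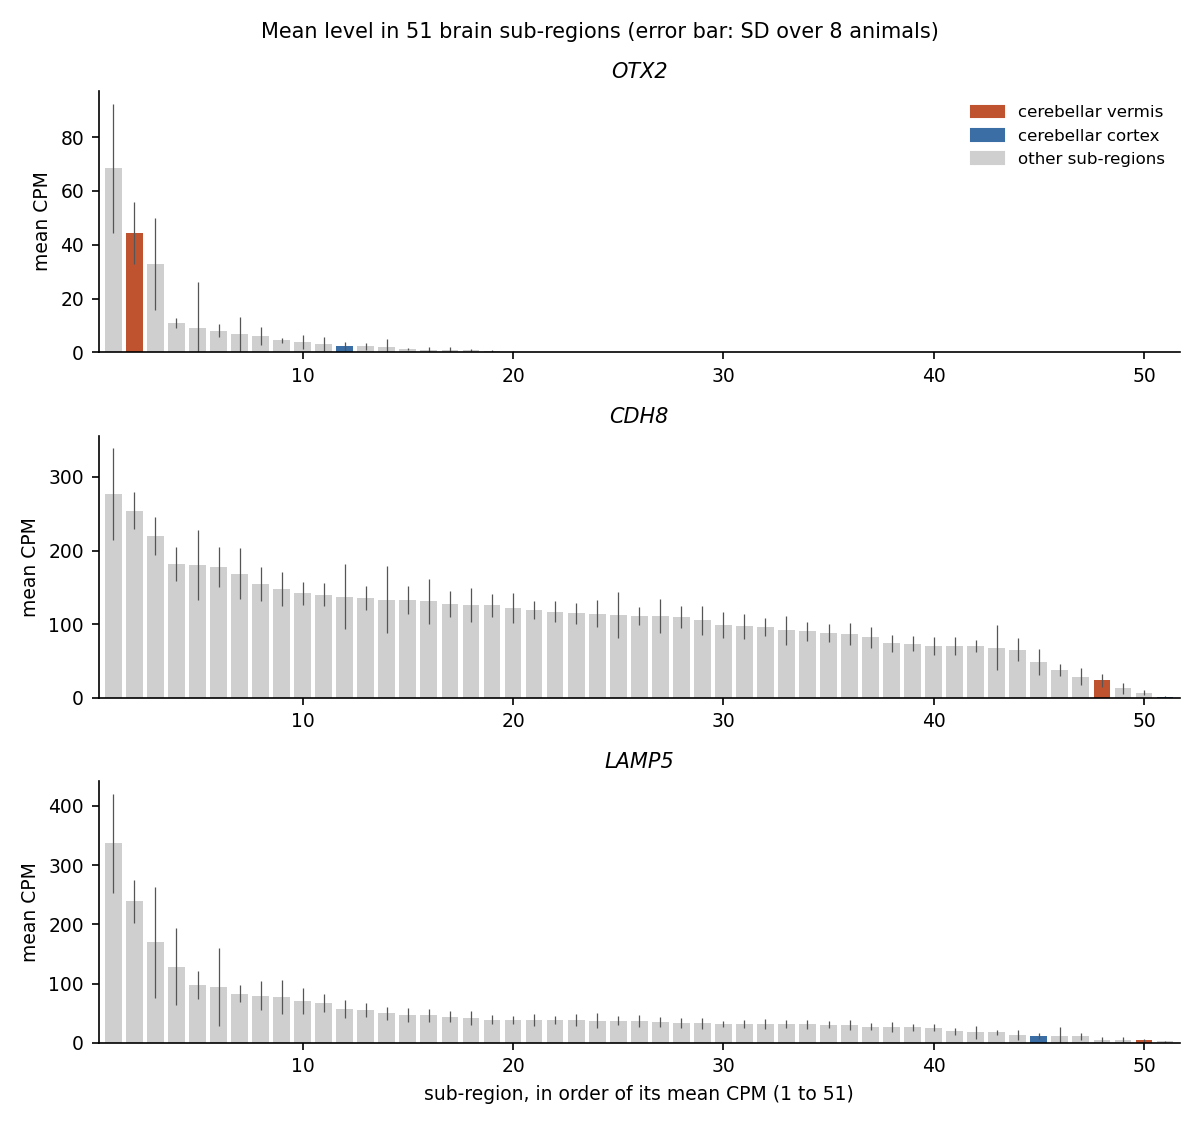
Mean CPM (vertical, linear, SD over 8 animals as error bars) of OTX2, CDH8 and LAMP5 in the 51 sub-regions, in order of the mean (horizontal). CBV (orange) stood second for OTX2 behind the thalamus, whereas both cerebellar sub-regions were near the low end for CDH8 and LAMP5, with CBC (blue) last for CDH8.

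Most genes that differed were not particular to the cerebellum. Of the 48 genes higher in CBV, 12 had their highest mean of all 51 sub-regions in CBV, and for 6 of them both cerebellar sub-regions were above the other 49. MTTP, EPHA8 and PKIB were among the 12. Outside the cerebellum, the highest mean of MTTP was in the pons at 4.92 CPM and that of EPHA8 in the thalamus at 3.40 CPM. For 15 of the 48, CBV lay below the median of the other sub-regions, as for TAC1 (rank 48, with 608 CPM in the putamen) and SLC6A7 (rank 45). Of the 72 genes higher in CBC, 8 had their highest mean in CBC, MYBPC3 among them, and for 33 CBC lay below the median of the others, as for DYSF (rank 49) and TAFA2 (rank 44). Each gene was ranked on the side where it was called higher. The same shares over all genes tested were not counted, so whether these counts are high or low cannot be told.

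The difference between CBV and CBC was also tested against age stage and sex. No gene passed FDR < 0.05 for the region by age stage term (0 of 14250 genes, 0%, with 474 at an unadjusted p under 0.05 and a lowest FDR of 0.701) or for the region by sex term (0 of 14250 genes, 0%, with 299 and 0.775). DESeq2 gave 0 as well, with 372 and 240 genes at an unadjusted p under 0.05. Within animals, the difference of OTX2 in log2(CPM + 1) ran from 3.04 to 4.38 in the 4 young and from 3.06 to 4.89 in the 4 mid-aged animals (FDR of the term 0.910). That of CDH8 ran from 3.18 to 4.16 in young and from 1.84 to 3.92 in mid-aged animals (FDR 0.701), and that of LAMP5 from -1.60 to -0.65 and from -1.47 to -0.94 (FDR 0.760). On simulated counts with 4 animals a side, the age term recovered 49 of 67 genes changed 2-fold and 16 of 67 changed 1.5-fold, so that differences of that smaller size would mostly be missed. Those counts gave all genes the same dispersion and held no library that stood apart. In the data the SE of the age term was 0.55 for OTX2, 0.51 for CDH8 and 0.29 for LAMP5. A 2-fold age difference in OTX2 or CDH8 could thus be missed as well.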

How the data were processed

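The authors' pipeline ran Trim Galore 0.4.4 for trimming, HISAT2 2.0.5 for alignment (build Mmul 8.0.1) and HTSeq 0.6.1 for gene counts on Ensembl models, by the methods and the submitters' processing notes. Their deposited table holds raw counts for 30807 genes, and every column was matched to a sample. Strand and overlap settings of HTSeq are not given in the sources used here, which leaves overlapping or antisense genes and close paralogs uncertain. Symbols came from a reference table for 17572 genes, of which 2340 shared a symbol, and for a list member with several IDs the one of highest mean count was used.

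Counts of the 16 cerebellar samples were tested with edgeR 4.0.16 (limma 3.58.1, R 4.3.3) by the quasi-likelihood F test with TMM, filterByExpr by sub-region, the animal as a block and Benjamini-Hochberg adjustment (FDR). SE is the absolute log2FC over the square root of F. The pairing comes from the animal IDs in the labels. Deviations from the group means correlated at 0.539 to 0.671 between the 2 samples of an animal, and at most at 0.264 with another animal's. Each animal gave 1 sample per sub-region, so p-values measure the spread between animals, dissection included. On simulated counts of 14250 genes the paired fit recovered 61 of 67 genes changed 1.5-fold, 67 of 67 changed 2-fold and 66 of 66 changed 4-fold, with 11 other calls. The simulation gave all genes the same dispersion and the same spread between animals. It held no library standing apart as the CBC library of animal 4 does, so it does not give the recovery in the real data. Data were summarized with Python 3.11.15, numpy 2.4.6 and pandas 2.3.3 and drawn with matplotlib 3.10.9.

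The genes named are OTX2, CDH8 and LAMP5, the 12 genes per direction with a symbol, at least 1 CPM in the higher sub-region, the same direction in all 8 animals and the largest fold, the called members of each list (otherwise its 2 members of highest CPM) and the 5 genes most like OTX2. Others are named as list members or were chosen after their values were seen. The sub-regions compared, the markers and the lists were chosen with earlier results of these data known. Alternatives were DESeq2 1.42.0, its size factors, other filters, no block, the authors' integrity score as a covariate and each animal left out. Promoter motifs, ATAC-seq samples, assembled transcripts and midbrain samples were not analysed here, and a few genes are not reported here.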

Additional observations from a re-analysis of the deposited data

Results flagged for a closer look

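For the genes named by rule and reported here, the highest or lowest of the 8 samples of a sub-region was compared with its nearest neighbour, and 28 of 150 groups of 8 held a sample that stood far from the others. Chance gives about 1 in 20 such groups where values follow a normal distribution. The values here were CPM without a transformation, so that share need not hold, and genes of one library are not independent.

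Animal 4 held 13 of the 28, of which 11 were in its CBC library. There RELN (397 CPM), ITPR1 (289 CPM), VCAN (10.0 CPM), PCDH1 (16.9 CPM), GRIA2 (95.1 CPM), KCND2 (30.7 CPM) and SCN2A (471 CPM) were the lowest of CBC. NTF3 (21.9 CPM), SLC17A7 (802 CPM), NTNG2 (12.1 CPM) and GRM4 (1401 CPM) were the highest. In its CBV library PCDH1 was lowest (28.5 CPM) and NEUROD6 highest (12.02 CPM).

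Animal 6, a mid-aged female, held 9. LAMP5 (24.4 CPM), MYOC (50.7 CPM), CSF1R (46.4 CPM), P2RY12 (33.9 CPM) and MAOA (26.9 CPM) were highest in its CBC, and EPN3 (8.78 CPM), IGFBP5 (333 CPM), MYOC (44.5 CPM) and CSF1R (38.9 CPM) in its CBV. MYOC and CSF1R thus stood out on both sides of this animal.

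In animal 10, MTTP was highest in CBC (17.6 CPM) and in CBV (37.3 CPM), and the immediate early genes NR4A2 (148 CPM) and FOS (88.3 CPM) were highest in CBV. SLC13A4, a meningeal marker, was highest in the CBC of animal 11 (25.8 CPM), and GRM4 in the CBV of animal 8 (869 CPM). The causes were not tested.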

How the results depend on the processing

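Of the 48 genes higher in CBV and 72 higher in CBC, DESeq2's likelihood-ratio test gave 98 and 151, with all 120 among its 249 calls, and DESeq2 size factors in edgeR called 122 genes, again with all 120. The study's detection rule and no filter on low counts kept 112 of the 120 among 126 and 160 calls. With the integrity score as a covariate beside the replicate block, 1173 and 727 genes were called, all 120 among them, and 8 of the 40 named genes not called in the paired fit were called too (RELN, VCAN, FLT1, GRIA2, SCN2A and MAOB higher in CBV, MBP and KCNC1 lower). The cause was not tested. The fit with no replicate block called 6 and 10 genes, all among the 120, and with a fold above 2 it called 6 and 4 in place of 15 and 17. Of 38 named genes called in the paired fit, it kept 8. With no filter on low counts, 27 genes were higher in CBC with a fold above 2. Leaving out each animal in turn gave 20 to 271 genes higher in CBV and 19 to 343 higher in CBC, and with a fold above 2, 9 to 18 and 8 to 24. The highest of each range was without animal 4, and the cause was not tested. Of the named calls 24 held in all 8 of these fits, 1 in 7, 2 in 3, 8 in 2 and 3 in 1. No named gene called in the paired fit changed its direction under any setting run, and no gene passed for age stage or sex under any setting that could be run. At 9341544 to 15755102 counts a library, genes near 1 CPM rest on few reads.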

Other observations

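Genes in this part were chosen after their values were seen. Among those higher in CBV, RCN1, a calcium-binding protein of the endoplasmic reticulum, was at 92.5 ± 23.9 CPM in CBC and 149 ± 32.3 CPM in CBV (log2FC 0.70, FDR 0.00241), and ZCCHC12, a zinc finger co-activator, at 11.4 ± 3.59 and 20.2 ± 7.44 CPM (log2FC 0.80, FDR 0.00299). RIMS3, a protein of the presynaptic active zone, had log2FC 0.76 (FDR 0.0488), and NCALD, a calcium sensor of the same family as HPCA, log2FC 0.51 (FDR 0.0403), both higher in 7 of 8 animals. FOXO1, a forkhead transcription factor, was at 24.6 ± 1.51 and 33.5 ± 5.72 CPM with no overlap (log2FC 0.43, FDR 0.0437).

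Beside the neurofilament genes, KIF5A, the neuronal kinesin that carries neurofilaments along axons, was lower in CBV (808 ± 94.9 and 612 ± 59.6 CPM, log2FC -0.40, FDR 0.00818). ANK1, an erythrocyte and neuronal ankyrin (log2FC -0.49, FDR 0.029), THY1, a surface protein of projection neurons (log2FC -0.57, FDR 0.0247), HAPLN4, a matrix link protein (log2FC -0.47, FDR 0.0488), RGS8, a regulator of G protein signalling in Purkinje cells (log2FC -0.37, FDR 0.0387), and DPP6, an auxiliary subunit of A-type potassium channels (log2FC -0.32, FDR 0.0398), were lower in all 8 animals too. KCNN2, a small-conductance potassium channel, fell from 43.1 ± 5.12 to 30.6 ± 2.58 CPM without overlap (log2FC -0.49, FDR 0.00923).

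TPH2, the enzyme of neuronal serotonin synthesis, was at 0.694 ± 0.512 CPM in CBC and 2.22 ± 0.890 CPM in CBV, higher in 8 of 8 animals but not called (log2FC 1.72, SE 0.41, FDR 0.0976), and was called without animal 4 (log2FC 1.41, FDR 0.0165). FRMD6, PRKAR2B and CRHR1 did not overlap between the groups and were not called (FDR 0.12, 0.357 and 0.199). PARPBP ran from 1.92 to 1917 CPM over the 8 hypothalamus samples, where PMCH, which overlaps it, had a median of 527 CPM.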
